A study of Mus musculus with 12 samples.

Results

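The genes described here are the CREB family of transcription factors and its coactivators. They were chosen by name, with earlier results of these data known, and comprise 8 of the 41091 gene IDs in the count tables. The CREB-family factors are Creb1, Crem and Atf1, the CREB-regulated transcription coactivators are Crtc1, Crtc2 and Crtc3, and the lysine acetyltransferases CBP and p300 are encoded by Crebbp and Ep300. All 8 passed the filter on low counts in every comparison.

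RNA-seq counts were available for 12 libraries of acute hippocampal slices from wild-type male C57BL/6 mice aged 2 to 3 months in 4 groups (LTP and control slices, each at 1 hr and 3 hr). The dentate gyrus was trimmed from the slices, which then recovered for 2 hr in an interface chamber. Chemical LTP, a lasting increase in synaptic strength brought about by drugs and ions in place of electrical stimulation, was induced with 50 uM forskolin for 5 min and then with forskolin, 30 mM KCl and 10 mM calcium up to 10 min in all. Forskolin activates adenylyl cyclase, and high potassium and calcium depolarise neurons and raise calcium entry. Control slices received 0.2% DMSO for 10 min, and slices of both kinds were frozen 1 hr or 3 hr after treatment. Each animal gave both an LTP and a control library, with 3 animals at each time point. The study sequenced slices in which Arc and the short form of Homer1 had risen by RT-qPCR, so every LTP library was selected for a response.

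In neurons, CREB (the product of Creb1) sits on cAMP response elements in promoters and becomes active when kinases downstream of cAMP and calcium phosphorylate it. Phosphorylated CREB recruits CBP and p300, which acetylate histones, while CRTC proteins move to the nucleus when they are dephosphorylated and bind CREB through its leucine zipper. The pathway is best known in the hippocampus for the transcription that lasting plasticity and memory require. Because it is switched mainly by modification and localisation of proteins already present, the mRNA level of these genes is a separate quantity from CREB activity, which was not measured here. CREM is the family member whose gene also has an internal, cAMP-inducible promoter that makes short repressor forms (ICER). Counts per gene do not separate such forms, nor the truncated forms of the other genes. In RNA from whole slices, fewer cells of a type and less RNA per cell cannot be told apart.

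The cAMP response element is shown here in the promoter windows of the genes, because it is the sequence that CREB, CREM and ATF1 recognise. Windows of 300 bases, from 250 before to 50 after each transcription start, were taken from RefSeq (GRCm38.p6) and searched on both strands for the full palindrome TGACGTCA and for its first 5 letters TGACG, a shorter core site that the full site contains. The full site was in 588 of 32851 windows (1.79%) and the core site in 6837 (20.8%). A window was found for 6 of the 8 genes (Creb1, Atf1, Crtc1, Crtc3, Crebbp and Ep300). Of these, 0 held the full site and 1, Atf1, held the core site at position -90 from its start. Of 35 established CREB targets, 27 had a window, of which 5 held the full site and 23 the core site in at least 1 window. Some genes have several windows, such as Bdnf with 7, so counts of genes are not directly comparable with the shares of windows. Among the other pathway genes listed, the full site was also in a window of Creb5, a CREB/ATF relative, and of Ppp2ca, a phosphatase subunit. The Atf1 core site and the 5 full sites of targets, whose levels are given with the results, are printed 5′ to 3′ on the strand of the gene, with the matched letters in capitals. Flanking bases are printed only up to the transcription start, which shortens those of Ppp1r15a. Atf1 lies at chr15:100227758-100227784 (plus strand), Dusp1 at chr17:26508597-26508626 (minus), Ppp1r15a at chr7:45526269-45526291 (minus), Cartpt at chr13:99900777-99900806 (minus), Scg2 at chr1:79440076-79440105 (minus) and Sst at chr16:23890874-23890903 (minus).
Atf1: tgaccacgcggTGACGcagcacgccgg
Dusp1: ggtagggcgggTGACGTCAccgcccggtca
Ppp1r15a: cgcctctccggTGACGTCAgcac
Cartpt: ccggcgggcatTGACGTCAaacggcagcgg
Scg2: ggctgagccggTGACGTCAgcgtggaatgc
Sst: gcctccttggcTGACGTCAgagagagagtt
A match describes the letters only, and a window without one says nothing of elements elsewhere.

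Library totals ran from 37118382 to 50815001 counts, and each of the 8 genes had at least 297 counts in every library. 1 hr control replicate 2 stood apart. The study set it aside after clustering, and 1.65% of its counts fell in gene IDs absent from the annotation used here, against 0.11% to 0.27% in the other libraries. The 3 hr LTP libraries were also spread out. Their replicates 2 and 3 had the highest chi-square per degree of freedom of any replicate pair (85.6, against 47 and 63.3 for the pairs of 1 hr control replicate 2, where counting error alone gives a value near 1). Replicates 1 and 2 gave 24.1 and replicates 1 and 3 gave 44. 3 hr LTP replicate 2 had the lowest level of the 3 for Atf1, Crtc1, Crtc2, Crtc3, Crebbp and Ep300, and replicate 3 the highest for the same genes. With replicate 2 left out, 4 of the 8 genes were called at 3 hr, as were 2170 of all 17769 tested. The control set aside at 1 hr entered no fit and is given as a value, so the 1 hr comparison rests on 5 libraries and the 3 hr comparison on 6. Levels are given as CPM (counts scaled to library size, by TMM), and where genes are set against each other as RPKM (CPM per kilobase of all exons). A gene was called at an adjusted p under 0.1 in the edgeR quasi-likelihood test and a fold change over 1.2.

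Chemical LTP was followed by higher mRNA of 3 of the 8 genes at 3 hr: Ep300 rose 1.53-fold, Crem 1.48-fold and Crebbp 1.40-fold. None of the 8 was called lower at 3 hr and none was called in either direction at 1 hr. Creb1 itself, Atf1, Crtc2 and Crtc3 had fitted changes between -0.14 and 0.08 (log2) at 3 hr. In all, 888 of 17508 genes tested were called higher at 3 hr (5.07%) and 1.53% were called lower. Groups that did not overlap were found for 3 of the 8 genes at 3 hr, against 27.0% of all genes. The median log2 fold change of the 8 was 0.24 at 3 hr, beside 0.00 over all genes tested.

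**Figure D1:**
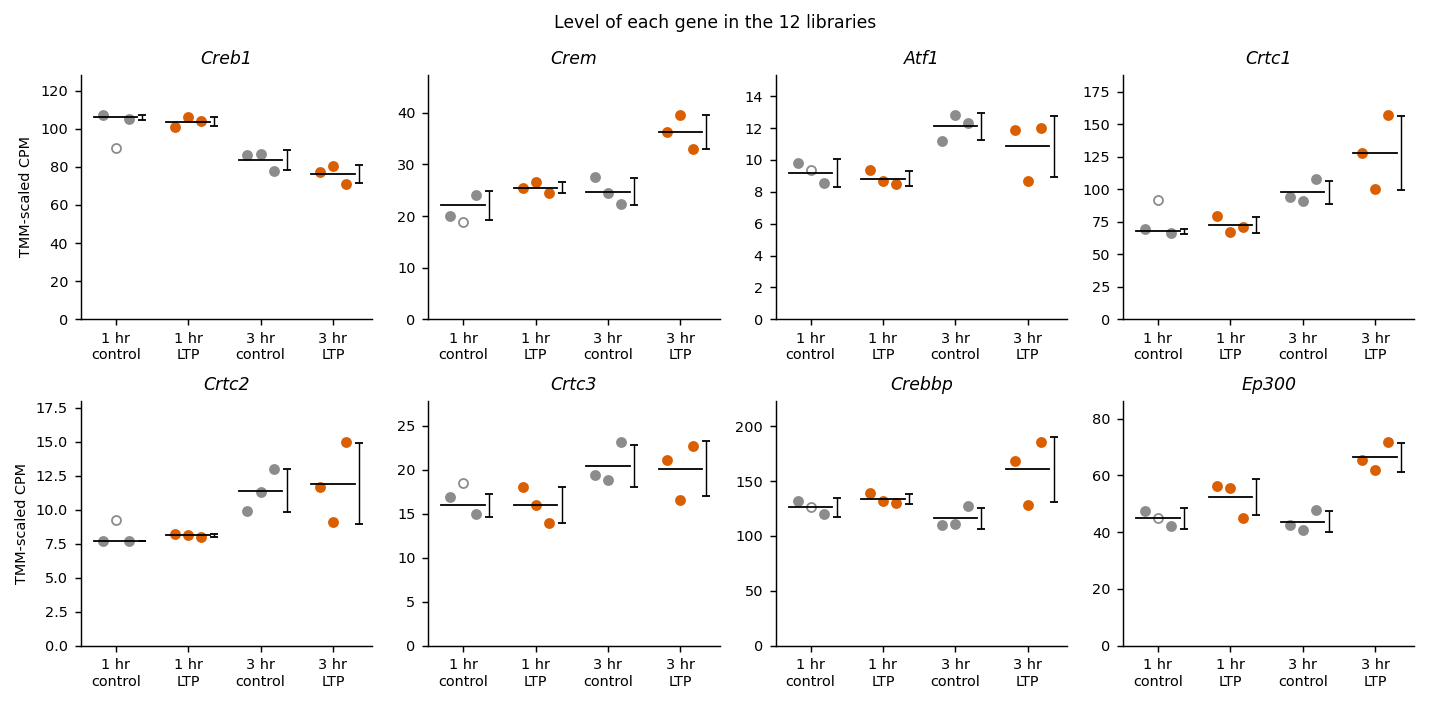
TMM-scaled CPM of each gene in the 12 libraries. Points are single libraries (grey control, orange LTP, hollow the 1 hr control replicate 2 left out of the fits), horizontal lines are group means and bars SD of the fitted libraries. The 3 hr LTP libraries of Crem, Crebbp and Ep300 lie above all their 3 hr controls, by a narrow margin for 1 Crebbp library.

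Among the transcription factors, Crem (ENSMUSG00000063889.11, chr18:3266048-3337748, minus strand, mm10) encodes activators and repressors that bind the same element as CREB. Its level was 27.5, 24.4 and 22.3 CPM in 3 hr control replicates 1, 2 and 3 and 36.3, 39.5 and 33.0 CPM in the matching 3 hr LTP replicates. All 3 LTP libraries exceeded all 3 controls, and the log2 ratio of LTP to control within an animal was 0.40, 0.70 and 0.56. The fitted log2 fold change was 0.57 (SE 0.0988, 95% confidence interval 0.34 to 0.79, adjusted p = 0.0216, edgeR quasi-likelihood). The call was lost when 3 hr control replicate 2 was left out (0.55, adjusted p = 0.124, edgeR quasi-likelihood) and kept in the other 18 alternatives. At 1 hr Crem was at 20.1, 18.9 and 24.0 CPM in control replicates 1, 2 and 3 and at 25.5, 26.6 and 24.4 CPM in LTP replicates. The highest 1 hr control lay just under the lowest LTP library. The fitted value was 0.22 (SE 0.096, 95% confidence interval 0.02 to 0.43), which was not called (adjusted p = 0.70, edgeR quasi-likelihood). Dropping control replicate 1 gave 0.10, and dropping control replicate 3 gave 0.35. Exons of Gm6225, a non-coding gene on the opposite strand, cover 8.01% of the exonic bases of Crem, and whether the counting used strand is not given in the sources used here. Crem values could therefore include reads of that transcript.

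Creb1 (ENSMUSG00000025958.9, chr1:64532645-64604548, plus strand) encodes CREB. At 3 hr it was at 86.4, 86.7 and 77.6 CPM in the controls and at 77.3, 80.2 and 70.9 CPM in the LTP libraries. The LTP library was the lower one in each animal (log2 ratios of -0.16, -0.11 and -0.13), while the groups overlapped. The fitted log2 fold change was -0.12 (SE 0.0709, 95% confidence interval -0.28 to 0.04, adjusted p = 0.379, edgeR quasi-likelihood), so a fall of the size seen in these animals was not distinguished from 0. With offsets per library for GC content and gene length the estimate was -0.28 and passed (adjusted p = 0.0183, edgeR quasi-likelihood). At 1 hr the controls were at 107, 89.8 and 105 CPM and the LTP libraries at 101, 106 and 104 CPM. The low value is that of the control set aside, and without it the estimate was -0.02 (95% confidence interval -0.16 to 0.12), which bounds a rise or a fall at 1 hr to a small size. With that control included the sign turned to 0.05.

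Atf1 (ENSMUSG00000023027.7, chr15:100227819-100261244, plus strand) encodes the third member, which pairs with CREB. Its 3 hr controls were at 11.2, 12.8 and 12.3 CPM and its LTP libraries at 11.9, 8.66 and 12 CPM. LTP replicate 2 was the low one, and the others lay within the range of the controls. The fitted value was -0.14 at 3 hr (95% confidence interval -0.44 to 0.15) and 0.00 without LTP replicate 2. At 1 hr it was -0.04 (95% confidence interval -0.31 to 0.22), with controls at 9.79, 9.37 and 8.55 CPM and LTP libraries at 9.36, 8.68 and 8.47 CPM.

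The balance between Crem and Creb1 therefore differed between groups. Per length of exon, the ratio of Crem to Creb1 RPKM was 0.44, 0.49 and 0.53 in the 1 hr controls and 0.59, 0.58 and 0.55 in the 1 hr LTP libraries. It was 0.74, 0.65 and 0.67 in the 3 hr controls and 1.09, 1.15 and 1.08 in the 3 hr LTP libraries. The 4 groups did not overlap, and the 3 hr LTP libraries were highest. The ratio's size depends on the length used, and per kilobase of coding sequence, a length chosen after seeing the data, it was 0.16 to 0.19 in 1 hr controls, 0.20 to 0.21 in 1 hr LTP libraries, 0.23 to 0.26 in 3 hr controls and 0.39 to 0.41 in 3 hr LTP libraries. Whether Crem or Creb1 was the more abundant is therefore not shown. This is a description: 3 libraries against 3 cannot give an exact permutation p under 0.10. As a share of the summed RPKM of the 3 factors, Creb1 made up 51.1% to 54.0% in 1 hr controls, 49.9% to 52.1% in 1 hr LTP libraries, 42.0% to 43.1% in 3 hr controls and 35.1% to 37.9% in 3 hr LTP libraries. The share of Crem was 23.8% to 28.0%, 28.7% to 29.9%, 28.2% to 31.9% and 38.1% to 43.6% in the same order. The share of Creb1 thus differed between the controls of the 2 times as well as between LTP and control at 3 hr, and overlapped at 1 hr.

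**Figure D2:**
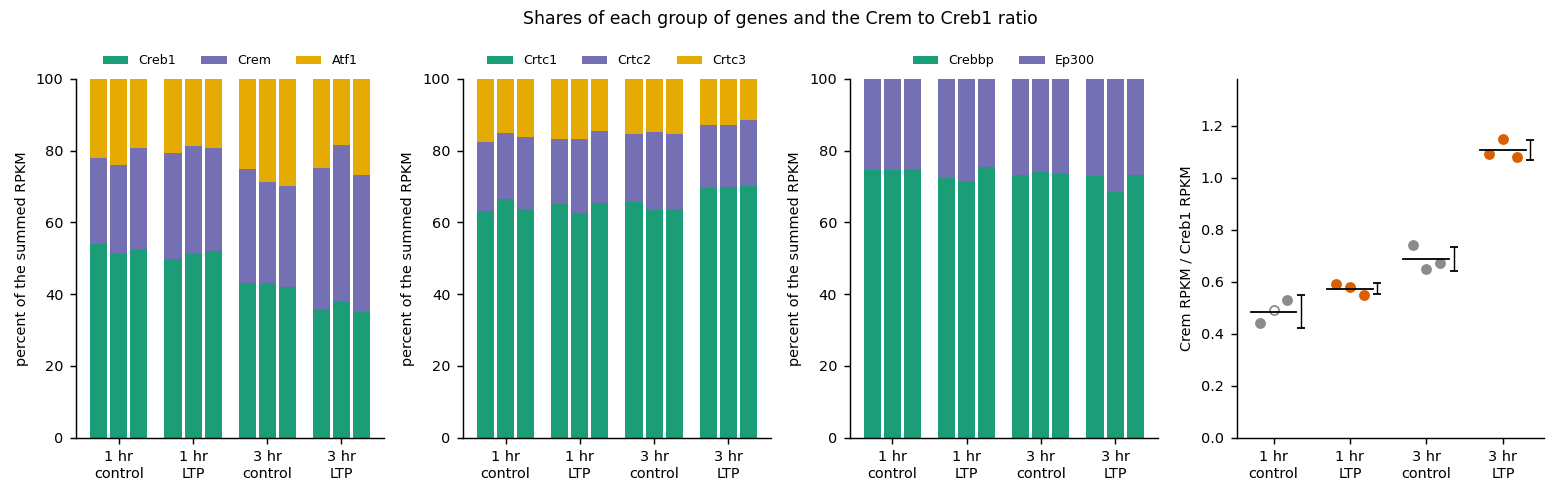
The first 3 panels give, for each library, the percent of the summed RPKM of a group of genes held by each gene (CREB-family factors, CRTC coactivators, CBP and p300), with replicates 1 to 3 side by side. The last panel gives the ratio of Crem to Creb1 RPKM per library, with means and SD of the fitted libraries and the 1 hr control replicate 2 hollow. The ratio is 1.08 to 1.15 in the 3 hr LTP libraries and at most 0.74 in the rest, on a scale that depends on the length of exons.

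Among the coactivators, Crtc1 (ENSMUSG00000003575.8, chr8:70382355-70439579, minus strand) encodes the CRTC protein that predominates in neurons and travels from synapse to nucleus with activity. Its 3 hr controls were at 94.4, 90.8 and 108 CPM and its 3 hr LTP libraries at 128, 100 and 157 CPM. LTP replicates 1 and 3 exceeded every control, and replicate 2 lay within their range. Within animals 1, 2 and 3 the log2 ratio was 0.44, 0.15 and 0.54. The fitted log2 fold change was 0.41 (SE 0.146, 95% confidence interval 0.08 to 0.74), not called at an adjusted p of 0.161 (edgeR quasi-likelihood). Crtc1 passed in 7 of 19 alternatives, and leaving out 3 hr LTP replicate 3 lowered it to 0.23 (adjusted p = 0.269, edgeR quasi-likelihood). With the animal as a replicate block, which follows the pairing of the slices, the adjusted p was 0.0283 (0.39, edgeR quasi-likelihood), and with DESeq2 it was 0.0644. At 1 hr Crtc1 was at 69.3, 92.1 and 66.5 CPM in the controls and 79.5, 67.5 and 70.8 CPM in the LTP libraries. The value of 92.1 CPM is again that of the control set aside. The fitted value was 0.11 (95% confidence interval -0.07 to 0.28), and -0.06 with that control included.

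Crtc2 (ENSMUSG00000027936.13, chr3:90254163-90264125, plus strand) and Crtc3 (ENSMUSG00000030527.10, chr7:80586627-80688877, minus strand) encode the related coactivators, of which CRTC2 is best known from fasting metabolism in liver. Crtc2 was at 9.89, 11.3 and 13 CPM in the 3 hr controls and at 11.7, 9.06 and 15.0 CPM in the LTP libraries. Crtc3 was at 19.4, 18.8 and 23.2 CPM in the controls and at 21.1, 16.6 and 22.7 CPM in the LTP libraries. In both genes the groups overlapped and LTP replicate 2 was the lowest of the 6 libraries. The fitted values were 0.08 (95% confidence interval -0.33 to 0.48) for Crtc2 and -0.01 (95% confidence interval -0.31 to 0.28) for Crtc3. Both intervals end below the 3 hr estimate of Crem (0.57), but the interval of Crem (0.34 to 0.79) overlaps that of Crtc2. Differences between genes were not tested. At 1 hr Crtc2 was at 7.67, 9.25 and 7.72 CPM in controls and 8.19, 8.12 and 8.02 CPM in LTP libraries. The LTP libraries of Crtc2 lay above both fitted controls and below the control set aside. The fitted value was 0.09 (95% confidence interval -0.17 to 0.34). Crtc3 was at 16.9, 18.5 and 15.0 CPM in the 1 hr controls and 18, 16 and 13.9 CPM in the LTP libraries, with a fitted value of 0.01 (95% confidence interval -0.24 to 0.26).

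Ep300 (ENSMUSG00000055024.7, chr15:81585351-81652077, plus strand) encodes p300, an acetyltransferase of histones and transcription factors that marks active enhancers. At 3 hr its controls were at 42.5, 40.8 and 47.9 CPM and its LTP libraries at 65.3, 62.0 and 71.9 CPM. The groups were well apart, and the ratios within animals were alike, at 0.62, 0.60 and 0.58 (log2). The fitted log2 fold change was 0.62 (SE 0.0851, 95% confidence interval 0.42 to 0.81, adjusted p = 0.00837, edgeR quasi-likelihood). Ep300 was called in all 19 alternatives tried, in which its log2 fold change ran from 0.49 to 0.69 and its adjusted p from 1.14e-07 to 0.0601. At 1 hr the controls were at 47.5, 45.0 and 42.3 CPM and the LTP libraries at 56.2, 55.6 and 45.0 CPM. LTP replicates 1 and 2 were high, and replicate 3 lay among the controls. The fitted value was 0.23 (SE 0.101, 95% confidence interval 0.01 to 0.45, adjusted p = 0.705, edgeR quasi-likelihood), and without LTP replicate 3 it was 0.33 and passed (adjusted p = 0.0687, edgeR quasi-likelihood). Without 1 hr control replicate 3 it was 0.15.

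Crebbp (ENSMUSG00000022521.9, chr16:4081328-4213997, minus strand) encodes CBP, the CREB-binding protein. Its 3 hr controls were at 110, 111 and 127 CPM and its LTP libraries at 168, 128 and 186 CPM. LTP replicates 1 and 3 were far above the controls, while replicate 2 was barely above the highest of them. Within animals the log2 ratios were 0.60, 0.21 and 0.55. The fitted log2 fold change was 0.48 (SE 0.127, 95% confidence interval 0.19 to 0.77, adjusted p = 0.0771, edgeR quasi-likelihood). The call was lost when LTP replicate 1 or 3 or any 1 of the 3 controls was left out, with estimates from 0.36 to 0.56 and adjusted p from 0.109 to 0.286 (edgeR quasi-likelihood). Without LTP replicate 2 it was kept (0.63, adjusted p = 0.00159, edgeR quasi-likelihood). At 1 hr the controls were at 132, 126 and 120 CPM and the LTP libraries at 139, 132 and 130 CPM. These ranges overlapped, and the fitted value was 0.09 (95% confidence interval -0.06 to 0.25).

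Crebbp held 68.5% to 75.3% of the summed RPKM of the pair in every library, over all 12 libraries. The log2 ratio of LTP to control was above 0 in all 3 animals at both time points for Crem, Crebbp and Ep300, where animal 2 at 1 hr is set against the control left out of the fits. At 1 hr 0 of the 8 genes were called by the edgeR quasi-likelihood test, by DESeq2 or by limma-voom, where 0.778% of 17736 genes were called higher and 0.0113% lower. An unadjusted p under 0.05 was reached by 2 of the 8, Crem and Ep300, against 6.71% of all genes, and 2 had groups that did not overlap (Crem and Crtc2), against 22.6%.

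Whether the LTP effect itself changed between 1 hr and 3 hr was tested as an interaction in a model of the 4 groups with 11 libraries. The estimates for Crebbp (0.40), Ep300 (0.39) and Crem (0.35) were the highest of the 8, with 95% confidence intervals of 0.05 to 0.75, 0.08 to 0.70 and 0.04 to 0.66. None of the 8 was called, with adjusted p values of 0.704, 0.637 and 0.696 for these genes (edgeR quasi-likelihood), and DESeq2 and limma-voom called 0 as well. Unadjusted p was under 0.05 for these 3 genes, against 6.59% of all genes, and 0.0592% of 18584 genes were called. A larger effect at 3 hr than at 1 hr is therefore not shown for any of the 8, although 3 passed the test at 3 hr and none at 1 hr. Without 3 hr LTP replicate 2 the interaction of Crebbp was 0.52 and passed (adjusted p = 0.0819, edgeR quasi-likelihood). For Crtc1 it was 0.31 (95% confidence interval -0.10 to 0.72), and for Creb1 -0.09 (95% confidence interval -0.30 to 0.11).

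**Figure D3:**
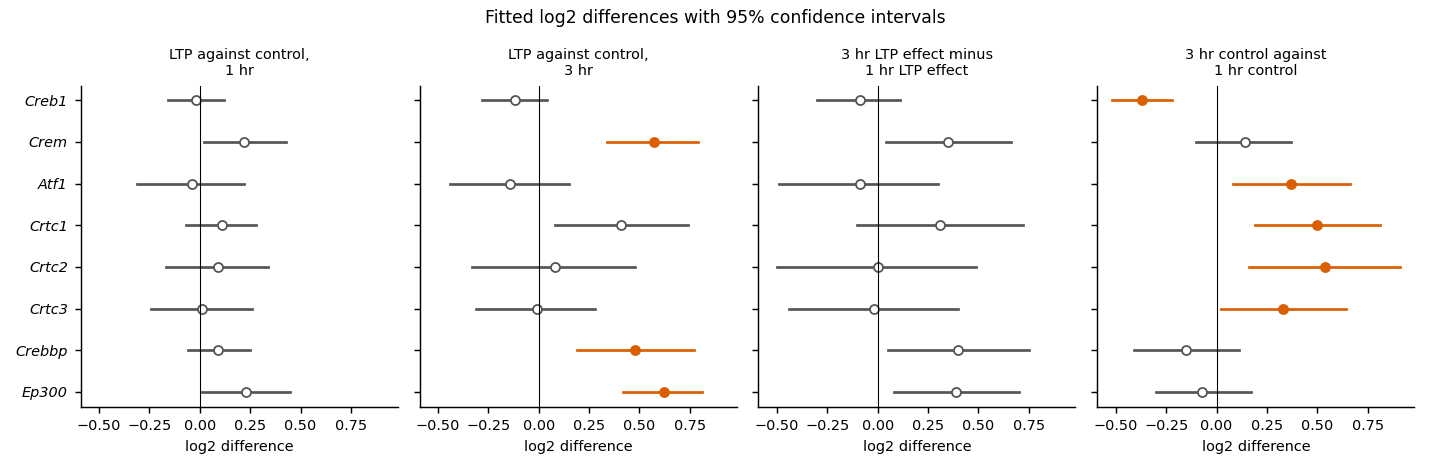
Fitted log2 differences (points) with 95% confidence intervals (lines) of the 8 genes in 4 comparisons, on 1 horizontal scale. Filled orange marks genes called by the edgeR quasi-likelihood test and hollow grey marks the rest. Crem, Crebbp and Ep300 are filled at 3 hr and Creb1, Atf1, Crtc1, Crtc2 and Crtc3 in the control comparison.

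Slices that had not received forskolin also differed between the time points. The 3 hr controls had higher Crtc2 (0.54, SE 0.173), Crtc1 (0.50, SE 0.144), Atf1 (0.37, SE 0.137) and Crtc3 (0.33, SE 0.146) than the 1 hr controls, and lower Creb1 (-0.37, SE 0.0701), with adjusted p values of 0.0307, 0.0187, 0.0529, 0.0999 and 0.00179 (edgeR quasi-likelihood). Crem (0.14), Ep300 (-0.07) and Crebbp (-0.15) were not called. This comparison and that of LTP with control at 3 hr share the 3 hr controls, so their values are only set side by side. The differences between controls were common among all genes: 16.1% of 18584 were called higher and 16.8% lower, and 60.7% had groups that did not overlap, against 5 of these 8. Time after treatment and animal cannot be told apart here, since different animals were taken to supply each time point.

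Calls between controls changed when GC content and length were taken into account. The GC content of the longest transcript is 39.6% for Creb1, 43.2% for Crem, 45.2% for Atf1, 51.1% for Ep300, 51.7% for Crebbp, 54.5% for Crtc2, 56.5% for Crtc1 and 57.0% for Crtc3. The part of GC content in the differences was not tested beyond the offsets. With offsets for GC content and length, Creb1 (-0.16), Crtc1 (0.25) and Crtc3 (0.06) were no longer called, Atf1 and Crtc2 still were, and Crem was called as well (0.27, adjusted p = 0.0387, edgeR quasi-likelihood). Single libraries also mattered: without 1 hr control replicate 3, Creb1 alone was called, and without 1 hr control replicate 1 Crtc2 and Crtc3 were lost. Atf1 was also lost without 3 hr control replicate 2, and Crtc3 without 3 hr control replicate 3 or 1 hr LTP replicate 2. In all, Crtc3 was not called in 8 of 22 alternatives. Over the 5 markers of microglia, the summed level was 142 to 157 CPM in 1 hr controls and 99.6 to 112 CPM in 3 hr controls, and 4 of the 5 were called lower. The 5 endothelial markers summed to 93 to 102 CPM in 1 hr controls and 81.5 to 85.3 CPM in 3 hr controls, with 3 called lower (Flt1, Pecam1 and Tek). The 5 oligodendrocyte markers summed to 5605 to 7044 CPM in 1 hr controls and 7426 to 8997 CPM in 3 hr controls, with Mag and Mbp called higher. Of 5 inhibitory neuron markers 1 was called higher and 1 lower, of 4 dentate granule neuron markers 1 lower, of 5 astrocyte markers 1 lower and of 4 choroid plexus markers 0. The pyramidal neuron marker Neurod6 was called lower, with a mean over all 3 libraries of 317 CPM in 1 hr controls and 163 CPM in 3 hr controls. The part of cell make-up in the differences of the 8 genes was not tested. At 3 hr, LTP against control, 0 markers of the 7 lists other than that of pyramidal neurons were called. The 5 astrocyte markers summed to 1730 to 1931 CPM in 3 hr controls and 1762 to 1806 CPM in 3 hr LTP libraries, and the 5 microglial markers to 98.1 to 102 CPM in the latter.

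The order of the genes by level depended on the length used. Per kilobase of all exons, Crtc1 (8.74 ± 0.812 RPKM, SD, n = 3) and Crebbp (8.56 ± 0.685) led in 3 hr control slices, and their libraries overlapped. Creb1 followed at 6.08 ± 0.378, apart from its neighbours. Crem (4.19 ± 0.438) and Atf1 (3.95 ± 0.262) overlapped each other, as did Ep300 (3.06 ± 0.259) and Crtc2 (2.78 ± 0.379), and Crtc3 was lowest at 2.08 ± 0.246. Per kilobase of coding sequence, Creb1 came first in the same libraries with 73.1 ± 4.54 CPM, then Crtc1 with 51.7 ± 4.8, Crem with 17.9 ± 1.87, and Crtc2 last with 5.46 ± 0.744. Creb1 has 13742 exonic but 1144 coding bases, and Crebbp 13540 and 7353. According to the study's text, expression was analysed from coding-region reads, while the tables also list non-coding genes, so which length matches the counts is not known and no order between genes is read from these levels. Changes within a gene do not depend on its length.

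Across the 12 libraries, Creb1 and Crtc1 had mirrored patterns (Pearson r of log2 CPM = -0.97), as to a lesser degree had Creb1 and Crtc2 (-0.91), Crtc3 (-0.82) and Atf1 (-0.71). Crtc1 and Crtc2 followed each other (0.92), as did Crtc2 and Crtc3 (0.89), Atf1 with Crtc2 and with Crtc3 (0.86 each), and Crebbp and Ep300 (0.87). Crem was nearest to Ep300 among the 8 (0.73). These are descriptions over 12 libraries that span all 4 groups and share their animals, depth and scaling, and carry no p. Over 14185 genes whose mean reached 1 CPM, the 3 most like Creb1 were Zhx1 (0.997), Tigd2 and Zfp148, those most like Crem were Arih1 (0.968), Zfp655 and Brwd1, and those most like Atf1 were Sprtn (0.957), Znrf3 and Gm24270. For Crtc1 they were Fam57b (0.993), Rab11fip3 and Nlgn2, for Crtc2 Phf2 (0.980), Nckap5l and Farp1, and for Crtc3 Kirrel3 (0.976), Col7a1 and Fam160b1. For Crebbp they were Spen (0.974), Tanc2 and Ank3, and for Ep300 the non-coding Gm26601 (0.965), B830012L14Rik and Lncpint.

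The rest of the pathway was read from 6 lists, against 0.778% of all genes called higher at 1 hr and 5.07% at 3 hr. Of the CRTC regulators, 1 of 11 was called higher at 1 hr and 2 at 3 hr, none lower. Both were salt-inducible kinases, which phosphorylate CRTC proteins and keep them in the cytoplasm. Sik1 was at 16.7, 22.1 and 19.0 CPM in 1 hr controls and 42.7, 38.2 and 34.6 CPM in 1 hr LTP libraries, a log2 fold change of 1.12. At 3 hr it was at 27.8, 26.4 and 27.5 CPM in controls and 63.5, 51.9 and 72.6 CPM in LTP libraries (1.22, adjusted p = 0.00172, edgeR quasi-likelihood). The log2 fold change of Sik1 at 3 hr exceeded those of Ep300, Crem and Crebbp, in the same direction. Sik2 rose at 3 hr from 36.4, 34.9 and 36.8 CPM to 51.2, 51.8 and 58.7 CPM (0.59, adjusted p = 0.00551, edgeR quasi-likelihood). The median of the 11 was 0.06 at 1 hr and 0.04 at 3 hr, beside 0.00 over all genes.

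Of the CREB/ATF relatives, 1 of 15 tested was called at 1 hr and 1 of 14 at 3 hr. It was Atf3 at both times, a stress- and activity-induced factor, at 36.8, 46.3 and 49.2 CPM in 1 hr controls and 81.1, 85.5 and 68.1 CPM in 1 hr LTP libraries (0.87). At 3 hr it was at 42.4, 55.4 and 43.4 CPM in controls and 75.2, 83.7 and 72.5 CPM in LTP libraries (0.73). Of 12 kinases that phosphorylate CREB or act just upstream, 0 were called at 1 hr and 1 at 3 hr, Mapkapk2 (0.27, adjusted p = 0.0747, edgeR quasi-likelihood). Of 5 catalytic subunits of phosphatases that act on CREB, 0 were called at either time. Of 14 partners of CBP and p300 and other acetyltransferases, 0 were called at 1 hr and 1 at 3 hr, the nuclear receptor coactivator Ncoa2 (0.27, adjusted p = 0.055, edgeR quasi-likelihood). The median of those 14 was 0.00 at 1 hr and 0.20 at 3 hr. The log2 fold changes of Ep300 and Crebbp exceeded that of Ncoa2.

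Of the 35 CREB targets, 18 were called higher at 1 hr and 23 at 3 hr, and 0 lower at either (0.778% and 5.07% of all genes were called higher), with a median log2 fold change of 0.47 and 0.52. The list was chosen with earlier results of these data known, so its excess over all genes is not independent of them. The 6 with the smallest p at 1 hr were Fos (1.97), Arc (1.99), Nr4a1 (1.70), Fosb (1.42), Dusp1 (1.40) and Junb (1.73). At 3 hr they were Arc (1.30), Fos (1.48), Inhba (1.04), Gem (1.17), Nfil3 (0.78) and Ppp1r15a (0.66). Fos, Fosb, Junb and Nr4a1 encode transcription factors of the immediate early response, and Dusp1 a phosphatase of MAP kinases. Arc was also a gene by which the slices were selected, so its rise is not independent of that choice. Of the 5 targets with a full element in the windows shown above, Dusp1 and Ppp1r15a were called at both times, Cartpt at 3 hr (0.11 at 1 hr and 0.90 at 3 hr), and Scg2 (0.14 and 0.10) and Sst (-0.19 and -0.06) at neither.

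**Figure D4:**
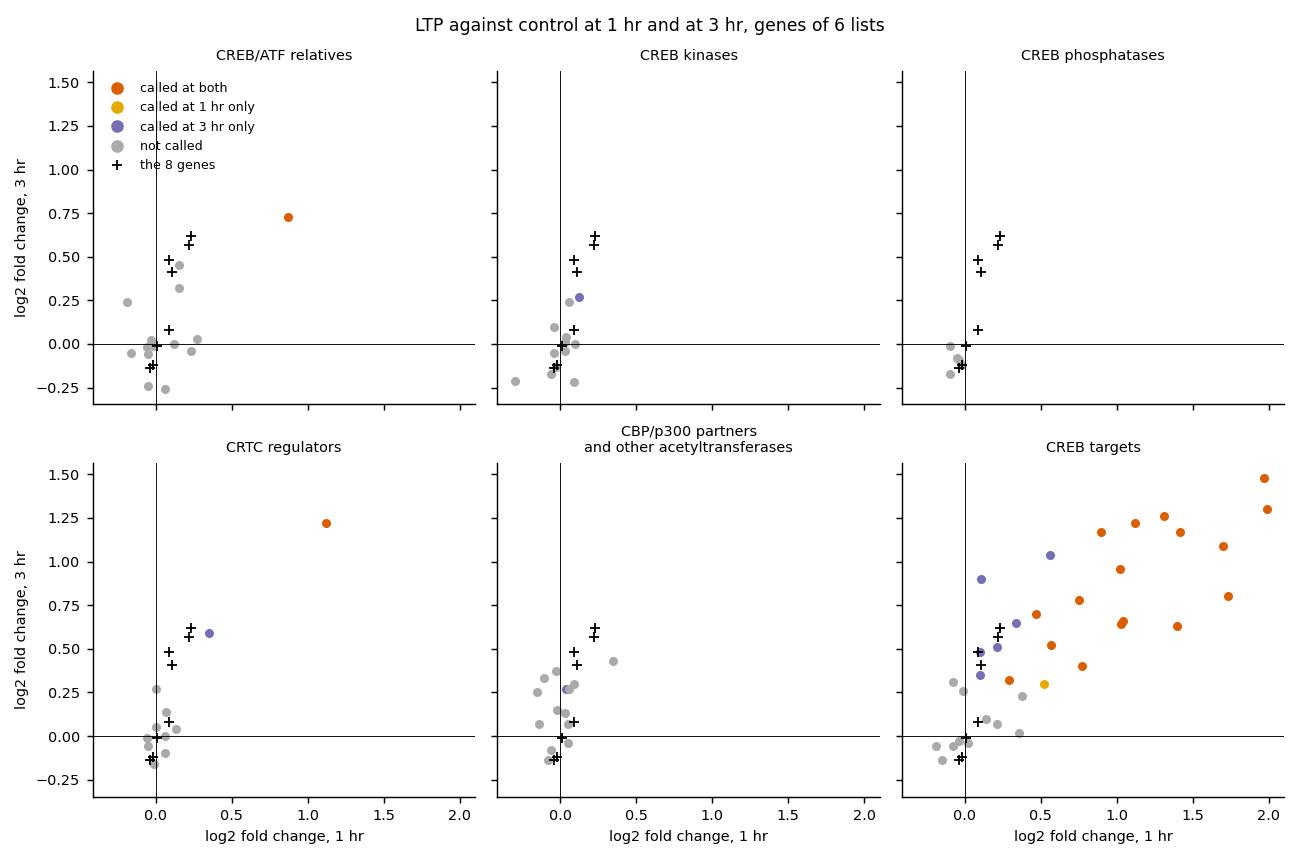
Log2 fold change of LTP against control at 1 hr (horizontal) and 3 hr (vertical) for the genes of the 6 lists, with colours for the time points at which a gene was called. Black crosses, the same in every panel, are the 8 genes. The crosses reach at most 0.23 at 1 hr and 0.62 at 3 hr, whereas CREB targets reach 1.99 and 1.48.

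Between the controls, list genes differed in both directions, as did 16.1% (higher) and 16.8% (lower) of all genes. Among CRTC regulators, Sik1 (0.58), Stk11, Sik2 and Mark2 were higher at 3 hr, and Ppp3ca (-0.49), Ppp3cc and Prkaa2 were lower. Ppp3ca and Ppp3cc encode catalytic subunits of calcineurin, the phosphatase that frees CRTC proteins. Among the kinases, Camkk1 (0.59), Mapkapk2 (0.56), Mapkapk3 (0.61) and Rps6ka2 (0.36) were higher and Camk4 (-0.45), a CREB kinase of neuronal nuclei, was lower. Of the relatives, Atf6b (0.58) was higher and Atf2 (-0.29) lower, and of the phosphatases Ppp1cc (-0.27) was lower. Of the partners of CBP and p300, Med25 (0.51) and Cited1 (0.77) were higher and Nono (-0.53) and Kat5 (-0.31) lower. Of the 35 targets, 13 were higher, led by Gadd45b (1.07), Inhba (1.38), Arc (0.56), Cebpb (1.09), Vgf (0.78) and Fos (0.40), and Penk (-0.57), Ppargc1a (-0.48) and Scg2 (-0.28) were lower.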

How the data were processed

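The deposited tables, 1 per time point, hold raw counts per gene that the authors made from stranded, ribosomal RNA-depleted paired-end libraries. Per the study's methods, STAR aligned the reads (GRCm38/mm10), which were counted with Bioconductor packages. The submitters' processing notes also name DESeq2. The annotation release and whether counting used strand are not given in the sources used here. Of 41091 gene IDs, 20554 matched GENCODE M21 with their version, 19663 without it, and 874 did not match. Symbols, exonic length and GC content came from that release.

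Counts were filtered with filterByExpr, scaled with TMM and tested by quasi-likelihood in edgeR 4.0.16 (R 4.3.3), with Benjamini-Hochberg adjustment over all genes tested. Thresholds were those of the study (adjusted p under 0.1, fold change over 1.2). The interaction had no fold minimum. Each time point had its own fit with no term for the animal, and the other comparisons in 1 model of 4 groups. SE was derived from the F statistic. A pseudocount of 0.1 CPM was added for ratios within an animal. The fits were tested on simulated data.

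The slices of 1 animal pair an LTP and a control library within a time point. Correlations of their deviations from group means over 18240 genes at 1 hr were -0.016 (animal 1), -0.109 (animal 2) and 0.076 (animal 3). At 3 hr they were 0.024, -0.052 and 0.164 in that order. The labels use the same numbers at both times, and no pairing across times was assumed.

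The genes, lists and markers were chosen with earlier results of these data known. Named were the 8 genes, list genes called (the 6 with the smallest p where more were called), the 3 genes most correlated with each of the 8, and genes with the element shown. Alternatives were DESeq2 1.42.0, limma-voom (limma 3.58.1), other scalings and filters, stricter thresholds, the animal as a replicate block, offsets for GC content and length, the 4-group model, the left-out library and leaving out each library. Of 8 marker lists, 1 is reported only in part here.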

Additional observations from a re-analysis of the deposited data

Results flagged for a closer look

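Among the 8 genes and the listed pathway genes, 1 had an LTP effect that differed between the time points by the test of the interaction. Arc, a CREB target, rose less against its controls at 3 hr than at 1 hr (difference -0.68 on the log2 scale, SE 0.102, adjusted p = 0.031, edgeR quasi-likelihood). It was at 151, 221 and 131 CPM in 1 hr control replicates 1, 2 and 3, of which replicate 2 was left out of the fit, and at 207, 219 and 212 CPM in 3 hr controls. The controls were higher at 3 hr (0.56, adjusted p = 0.000231, edgeR quasi-likelihood). The LTP libraries were at 592, 538 and 533 CPM at 1 hr and at 504, 511 and 541 CPM at 3 hr, and these ranges overlapped. Slices were selected for a rise of Arc.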

How the results depend on the processing

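Of the 8 genes, 5 rather than 3 were called at 3 hr with offsets for GC content and length, and 5 with these offsets and the replicate block, Crtc1 (0.33) and Creb1 (-0.28) being added. Over all 17508 genes tested, calls rose as well, from 1155 to 1528 with the offsets, 1778 with offsets and block and 1662 with the block alone. With the replicate block alone, which follows the pairing of slices by animal, 4 were called (Crtc1 added, 0.39), and the block changed no call at 1 hr or in the interaction. Between the controls, where time and animal coincide and no block could be fitted, 3 rather than 5 were called at an adjusted p under 0.05 and 3 with the offsets. Leaving out 1 library at a time gave 0 to 1 calls at 1 hr (Ep300 without LTP replicate 3) and 1 to 4 at 3 hr (1 without control replicate 2). It gave 0 to 1 in the interaction (Crebbp without 3 hr LTP replicate 2). Calls between controls also depended on single libraries. Calls over all genes shifted too. At 3 hr they were 228 of 17855 without control replicate 2 and 2170 of 17769 without LTP replicate 2, against 1155 of 17508 in the main fit. At 1 hr they were 344 of 17497 without LTP replicate 3, against 140 of 17736. In the interaction they were 67 of 18446 without 3 hr LTP replicate 2, against 11 of 18584. The cause of these shifts was not tested.

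With coding length the mean Crem to Creb1 ratio was 0.17 (controls) and 0.21 (LTP) at 1 hr and 0.24 and 0.40 at 3 hr, in place of 0.49, 0.57, 0.69 and 1.11. Signs turned only for values that were not called. With 1 hr control replicate 2 included, the 1 hr values were 0.05 (Creb1), -0.06 (Crtc1), -0.01 (Crtc2) and -0.06 (Crtc3), and with the replicate block as well, a setting chosen after seeing the data, 0.06, -0.05, -0.01 and -0.07. The interaction was then 0.08 (Crtc2) and 0.05 (Crtc3), and 0.06 and 0.04 with the block. At 1 hr Crtc3 was 0.00 with the replicate block, 0.00 with the offsets and -0.05 with both, and the interaction of Crtc2 was 0.02 with the offsets and 0.04 with both. With 1 library left out at a time, the 1 hr values ran from -0.14 to 0.06 (Atf1) and -0.08 to 0.11 (Crtc3). Those at 3 hr ran from -0.23 to 0.00 (Atf1), -0.13 to 0.24 (Crtc2) and -0.12 to 0.11 (Crtc3), the interaction from -0.22 to 0.03 (Atf1), -0.22 to 0.14 (Crtc2) and -0.14 to 0.08 (Crtc3), and the difference of Ep300 between controls from -0.12 to 0.06.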
